A study of Mus musculus with 6 samples.

Results

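The proteasome genes were chosen by symbol: every mouse gene named Psma to Psmg followed by a number and carrying a probe set that the array annotation pairs with that gene alone, with the brightest such probe set taken for each gene. This gave 50 genes of the 51 annotated symbols, out of 19938 genes with a probe set of their own and 35556 probe sets in all. The symbol left, Psme2b, shares its probe set with Psme2 and was left out. Of the 50 genes, 48 encode subunits, activators, an inhibitor or assembly chaperones of the proteasome. The remaining 2 only match the naming pattern: Psmc3ip is a cofactor of meiotic recombination and Psme3ip1 encodes a protein that binds the activator subunit PSME3. RNA of whole thymus was measured on Affymetrix MoGene-1 arrays in 3 RUNX2/MYC mice, genotype CD2-Myc/CD2-Runx2 on a background labelled C57BL6/CBA, and in 3 WT mice labelled C57/CBA, all 10 days old, and the methods describe 1 background for both groups. Each transgene is placed under the control region of CD2, a gene of T cells, so both are meant to act in T cells and not in the thymic stroma, and no group with a single transgene was analysed here. The study compared these thymuses, taken before lymphoma is seen, to find which genes change when MYC and RUNX2 act together. Each array is labelled as a separate biological replicate, and all levels below are log2 signals.

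The proteasome is the protease complex that breaks down ubiquitin-tagged proteins. Its 20S core holds outer rings of alpha subunits and inner rings of beta subunits, and the catalytic sites lie in the beta rings. The 19S cap recognises, unfolds and feeds in the substrate, and dedicated chaperones put both parts together. Cells exposed to interferon, and many lymphoid cells, replace the constitutive catalytic subunits with the immunoproteasome subunits PSMB8, PSMB9 and PSMB10. The epithelium of the thymic cortex uses a further subunit, PSMB11, which makes the thymoproteasome and is needed for the normal positive selection of CD8 T cells.

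The probe set of Runx2 had log2 signals of 11.73, 11.78 and 11.96 on the RUNX2/MYC arrays, against 7.94, 7.94 and 7.93 on the WT arrays, so the arrays bore their labels. The probe set of mouse Myc need not read the transgene, and its RUNX2/MYC minus WT difference was -0.48 on the log2 scale, with an adjusted p of 0.119 from limma. Thymocyte markers were bright in both groups, Cd3e at 12.87 to 12.90 on the RUNX2/MYC arrays and 12.79 to 13.04 on the WT arrays. Of 9 such markers 6 had negative log2 fold changes, and the median of the 9 was -0.19. Cd4 (-0.74), Rag1 (-0.62), Rag2 (-0.55) and Dntt (-0.52), 4 of the 9, lay lower on every RUNX2/MYC array, against 11.2% of all genes. Cd3d (0.32) lay higher on every RUNX2/MYC array, Cd8a was at 0.10 and Cd8b1 at 0.01. None of the 9 passed the test. RUNX2/MYC replicate 1 and WT replicate 3 were intermediate on the first principal component of all probe sets, and adipocyte markers stood high in RUNX2/MYC replicate 2.

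Nearly all proteasome genes had a slightly higher mean signal in RUNX2/MYC thymus than in WT thymus, but only Psmg2, an assembly chaperone of the 20S core, passed the test. Of the 50 genes 46 had a positive log2 fold change and 4 a negative one, with a median of 0.19 and a range of -0.13 (Psmb11) to 0.60 (Psmg2). Over all genes 40.2% were positive, and over the brightly expressed ones, with a mean log2 signal above 9, 75.2%. The positive count was 48 under median centring of the arrays, 40 after quantile normalisation, 39 under centring on the 75th percentile and 35 after cyclic loess, where the median was 0.063. All RUNX2/MYC arrays lay above all WT arrays for 26 of the 50 genes, against 15.5% of all genes tested, and all lay below for 1 gene, against 11.2% of all genes.

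By limma, a moderated linear model fitted over all probe sets with Benjamini-Hochberg adjustment, 1 of the 50 genes was higher in RUNX2/MYC at an adjusted p under 0.05 and 0 were lower, where 2.27% of all genes were called higher and 0.0953% lower. With p unadjusted and under 0.05, 17 of the 50 were higher, where 13.2% of all genes were, and 0 were lower. The analysis of variance with q values that the methods describe gave 3 higher, Psme3, Psmg2 and Psma4. The limma count was 12 without both RUNX2/MYC replicate 1 and WT replicate 3, where 3050 genes in all were called higher and 4130 lower. Those 2 arrays were intermediate on the first principal component of these same data, so the calls of this setting are no independent check. The count was 0 when RUNX2/MYC replicate 2 or 3, or else WT replicate 1 or 2, was left out alone, where 2 or 3 genes in all were called higher. The proteasome genes are brightly expressed, and the median of bright genes was itself above 0, so both were set side by side. Of the 45 proteasome genes with a mean log2 signal above 9, 53.3% had all RUNX2/MYC arrays above all WT arrays, against 33.7% of the 5155 genes that bright. At an unadjusted p under 0.05 it was 37.8% of these 45 genes against 27.9% of bright genes, and at the adjusted threshold 1 gene against 5.12%. The median log2 fold change was 0.19 for these 45 genes and 0.14 for all bright genes. RNA came from whole thymus, so fewer cells of a type and less RNA per cell cannot be told apart in any of these values. The thymocyte markers Cd4, Rag1, Rag2 and Dntt were lower on every RUNX2/MYC array and Cd3d was higher on every one, as given above. Of 9 markers of dendritic cells and macrophages 8 had negative log2 fold changes (median -0.20). Alas2, the only 1 of 3 listed erythroid genes measured, was at 1.17 and did not pass (adjusted p = 0.169 from limma). Its signals were 10.91, 9.98 and 9.36 on the RUNX2/MYC arrays, against 9.21, 8.55 and 8.99 on the WT arrays. The part of cell composition in the proteasome values was not tested.

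**Figure D1:**
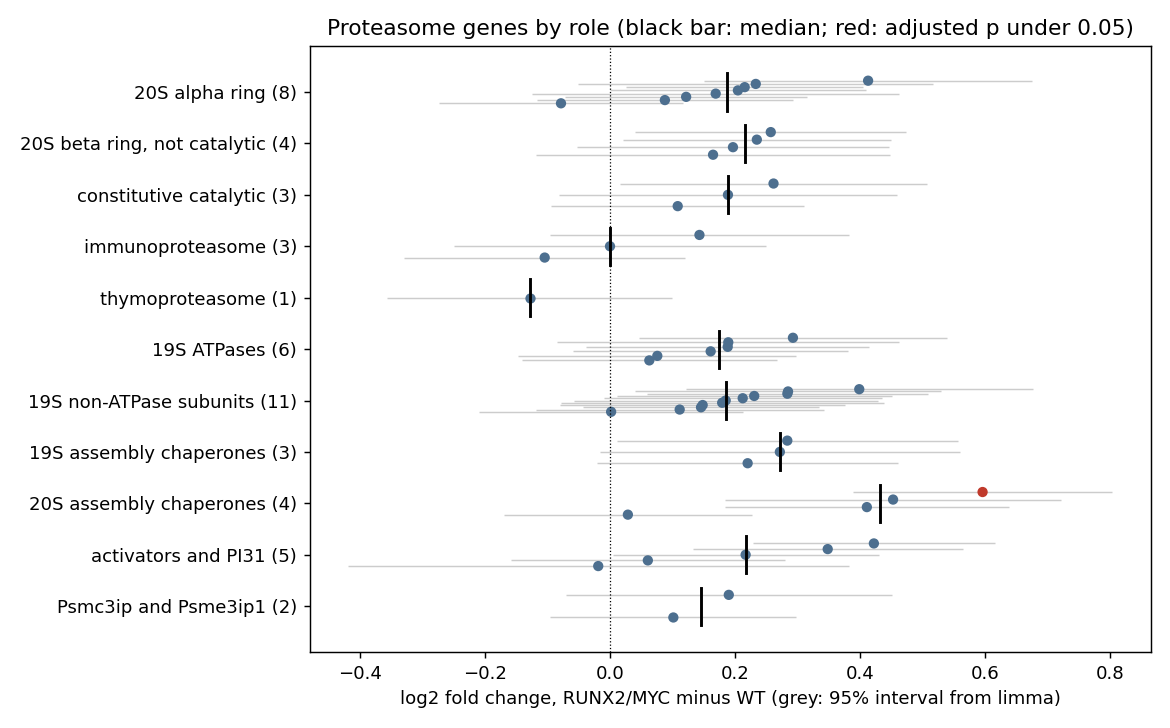
Log2 fold change, RUNX2/MYC minus WT, of 50 genes grouped by role, with the number of genes in parentheses. Points are genes, grey lines are 95% confidence intervals from limma, black bars are class medians and the red point is Psmg2, the only gene with an adjusted p under 0.05. The 20S assembly chaperones have the highest class median (0.43). The immunoproteasome and thymoproteasome subunits lie at or below 0.14, as do some genes of other classes, such as Psmc3 (0.06) and Psmd8 (0.00).

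The 20S assembly chaperones work in pairs, PSMG1 with PSMG2 to begin the alpha ring and PSMG3 with PSMG4 to order it. Psmg2 had log2 signals of 10.09, 10.21 and 10.24 on the RUNX2/MYC arrays, against 9.59, 9.52 and 9.64 on the WT arrays. The groups were far apart relative to their spread: the log2 fold change was 0.60 (standard error 0.088, 95% confidence interval 0.39 to 0.80), a 1.51-fold higher signal in RUNX2/MYC with an adjusted p of 0.0288 from limma. The call was lost when RUNX2/MYC replicate 2 or 3 or WT replicate 1 or 2 was left out, under centring on the 75th percentile and by the methods' analysis of variance with Benjamini-Hochberg adjustment, with adjusted p up to 0.175 over all alternatives, while the log2 fold change stayed between 0.45 and 0.69.

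Its partner Psmg1 had signals of 9.98, 10.04 and 9.93 on the RUNX2/MYC arrays, against 9.68, 9.44 and 9.59 on the WT arrays. The groups did not overlap, but the log2 fold change of 0.41 (standard error 0.096) did not pass (adjusted p = 0.0888 from limma). Psmg4 had 9.20, 9.24 and 9.24 on the RUNX2/MYC arrays, against 8.59, 8.76 and 8.97 on the WT arrays. The RUNX2/MYC arrays were nearly equal and the WT arrays were spread, and the log2 fold change was 0.45 (adjusted p = 0.102 from limma, standard error 0.11). Both genes passed without RUNX2/MYC replicate 1 and WT replicate 3. Those arrays were picked from these same data and the setting called 3050 genes higher in all, so it is no independent check. Psmg3, a dim probe set with a mean signal of 6.95, had a log2 fold change of 0.03. The 4 chaperone genes therefore comprised 1 that passed, 2 that did not overlap between the groups and missed the threshold, and 1 near 0.

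Among the activators, which dock on the core in place of the 19S cap, Psme3 came closest to the threshold. It encodes the nuclear activator PA28 gamma. Psme3 had log2 signals of 11.85, 11.76 and 11.79 on the RUNX2/MYC arrays, against 11.38, 11.33 and 11.43 on the WT arrays. The gap between the groups was several times the spread within them, at a log2 fold change of 0.42 (standard error 0.081, 95% confidence interval 0.23 to 0.61) and an adjusted p of 0.057 from limma. It passed in 8 of 19 alternatives. These include the setting without RUNX2/MYC replicate 1 and WT replicate 3, which called 3050 genes higher in all and is no independent check.

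The other activators differed among themselves. Psme2, which forms the interferon-inducible activator with Psme1, was at a log2 fold change of 0.35 (adjusted p = 0.112 from limma) and Psme1 at 0.06, and both genes lie close together on chromosome 14. Psme4, the gene of the activator PA200, had 10.09, 10.28 and 10.47 on the RUNX2/MYC arrays, against 9.97, 10.44 and 10.49 on the WT arrays. Its groups overlapped fully, with the widest spread of any proteasome gene in WT (SD 0.29) and a log2 fold change of -0.02 whose sign turned with the scaling. Psmf1, the gene of the inhibitor PI31, had a log2 fold change of 0.22 without overlap.

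**Figure D2:**
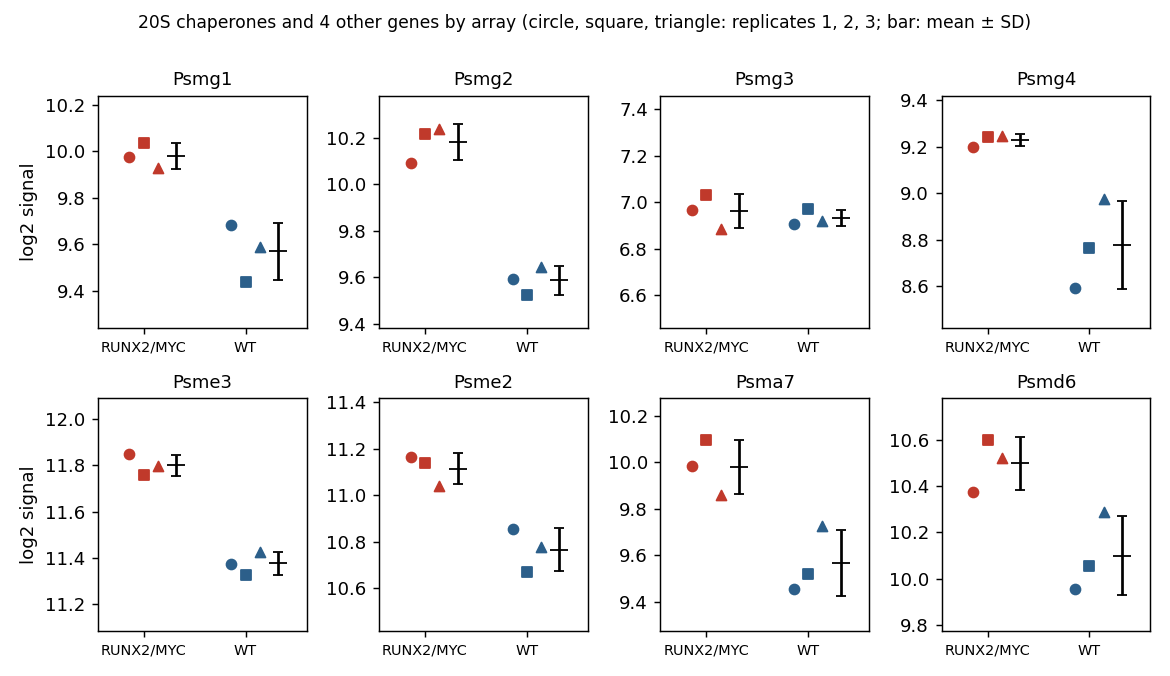
Log2 signal of the 4 chaperone genes of the 20S core and of Psme3, Psme2, Psma7 and Psmd6 on each array, RUNX2/MYC in red and WT in blue. Circles, squares and triangles are replicates 1, 2 and 3, bars are the mean ± SD of 3 arrays and each vertical axis spans 1 log2 unit. The groups are apart in every panel but that of Psmg3.

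In the core itself, 7 of the 8 alpha ring genes had positive log2 fold changes, with a median of 0.19. Of the 8 genes 4 did not overlap between the groups, where 33.7% of bright genes lay higher on every RUNX2/MYC array. Psma7 stood highest, with 9.98, 10.10 and 9.86 on the RUNX2/MYC arrays, against 9.45, 9.52 and 9.73 on the WT arrays. Its log2 fold change was 0.41 (adjusted p = 0.119 from limma, standard error 0.11). Psma7 passed without RUNX2/MYC replicate 1 and WT replicate 3, a setting that called 3050 genes higher in all and is no independent check. The exception was Psma8, which replaces Psma7 in the proteasome of male germ cells. Psma8 was dim on every array, at 6.02, 5.94 and 5.97 for RUNX2/MYC, against 6.07, 6.11 and 5.98 for WT. These groups overlapped, and its log2 fold change of -0.08 turned positive under 3 of the scalings. The 4 beta ring genes without a catalytic site, Psmb1 to Psmb4, lay between 0.16 and 0.26, and Psmb2 and Psmb4 did not overlap between the groups.

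The genes of the 19S cap had similar values. All 6 ATPase genes, whose products form the unfolding ring, had positive log2 fold changes between 0.06 (Psmc3) and 0.29 (Psmc6), and 3 did not overlap between the groups. All 11 non-ATPase subunit genes were positive, between 0.00 (Psmd8) and 0.40 (Psmd6, adjusted p = 0.143 from limma), and 6 did not overlap. Psmd14, whose product removes the ubiquitin chain, was at 0.23 (adjusted p = 0.222 from limma). The 19S assembly chaperone genes lay close together, at 0.22 for Psmd9, 0.27 for Psmd10 (gankyrin) and 0.28 for Psmd5, and their median was 0.15 without RUNX2/MYC replicate 2. Over the 31 constitutive subunits of core and cap, leaving out the germ cell subunit Psma8, 31 were positive and 17 (54.8%) did not overlap. By limma 10 (32.3%) reached p under 0.05 before adjustment and 0 passed after adjustment. All 31 had a mean log2 signal above 9. Of all genes that bright 75.2% were positive, 33.7% lay higher on every RUNX2/MYC array and 27.9% were higher at an unadjusted p under 0.05. Of these 31, all stayed positive under median centring, 27 under centring on the 75th percentile, 26 after quantile normalisation and 23 after cyclic loess. The ATPase genes had 4 positive and 2 negative values under each of the last 3 scalings. Where 5 genes had several probe sets for themselves (Psma3, Psma5, Psmb3, Psmc1 and Psmd2), the probe sets of each gene pointed in 1 direction and differed by at most 0.088.

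The constitutive catalytic subunits had log2 fold changes of 0.11 to 0.26, the immunoproteasome subunits -0.10 to 0.14 and the thymoproteasome subunit -0.13, and none passed the test. Psmb5, the constitutive chymotrypsin-like subunit, had log2 signals of 12.70, 12.77 and 12.52 on the RUNX2/MYC arrays, against 12.49, 12.41 and 12.30 on the WT arrays. All RUNX2/MYC arrays were above all WT arrays, the lowest only just above the highest WT array, and the log2 fold change was 0.26 (adjusted p = 0.217 from limma, standard error 0.10). Psmb6, the caspase-like subunit, had 10.59, 10.85 and 10.56 on the RUNX2/MYC arrays, against 10.52, 10.35 and 10.55 on the WT arrays. Here 1 array, RUNX2/MYC replicate 2, stood well above the rest, and the log2 fold change of 0.19 had an adjusted p of 0.348 from limma and was 0.10 without that array. Psmb7, the trypsin-like subunit, had 10.94, 11.03 and 11.00 on the RUNX2/MYC arrays, against 10.82, 10.85 and 10.97 on the WT arrays. The groups overlapped by the third WT array, and the log2 fold change of 0.11 turned slightly negative after quantile normalisation and cyclic loess.

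Each of the immunoproteasome genes overlapped between the groups. Psmb8, the counterpart of Psmb5, had 10.58, 10.73 and 10.58 on the RUNX2/MYC arrays, against 10.36, 10.50 and 10.61 on the WT arrays. Only WT replicate 3 reached the RUNX2/MYC range, at a log2 fold change of 0.14 (adjusted p = 0.403 from limma, standard error 0.10). Psmb9, the counterpart of Psmb6, had 9.54, 9.66 and 9.42 on the RUNX2/MYC arrays, against 9.69, 9.59 and 9.64 on the WT arrays. RUNX2/MYC replicate 2 lay within the WT range and the log2 fold change was -0.10 (adjusted p = 0.505 from limma, standard error 0.095). It was -0.16 without RUNX2/MYC replicate 2 and -0.044 without RUNX2/MYC replicate 3, and from -0.25 to -0.020 under the other scalings. Psmb10, the counterpart of Psmb7, had 10.13, 10.21 and 9.93 on the RUNX2/MYC arrays, against 10.15, 10.00 and 10.12 on the WT arrays. Both groups averaged 10.09, and the sign of the difference changed with the scaling.

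Psmb11, the thymoproteasome subunit, had the lowest log2 fold change of the 50 genes in the values as deposited, but not in several alternatives. Psmb9 was lower after quantile normalisation and cyclic loess, when RUNX2/MYC replicate 2 or WT replicate 3 was left out, and without both intermediate arrays. Psme4 was lower without WT replicate 1. Psmb11 had log2 signals of 8.16, 8.09 and 8.17 on the RUNX2/MYC arrays, against 8.21, 8.18 and 8.42 on the WT arrays. The RUNX2/MYC arrays were all below the WT arrays, but by a narrow margin, since WT replicate 3 alone stood clearly higher. The log2 fold change was -0.13 (adjusted p = 0.429 from limma, standard error 0.096, 95% confidence interval -0.36 to 0.10), and without WT replicate 3 it was -0.05.

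**Figure D3:**
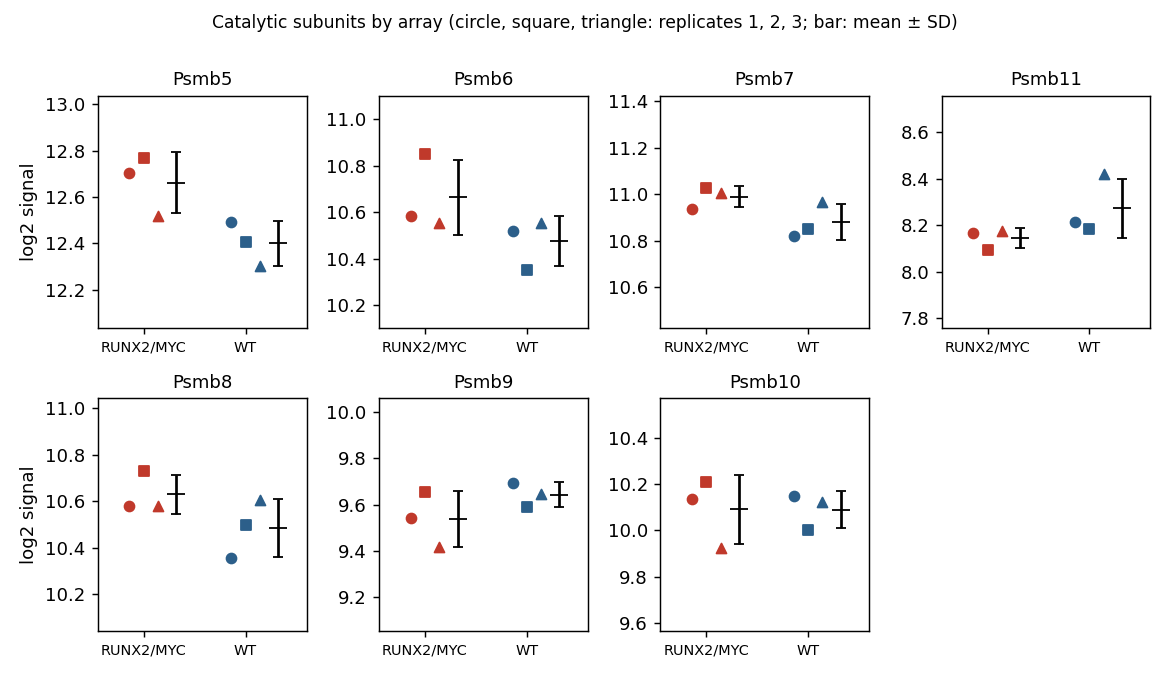
Log2 signal of the 7 catalytic subunit genes on each array, RUNX2/MYC in red and WT in blue. The upper row holds the constitutive subunits and Psmb11 and the lower row the immunoproteasome subunits. Circles, squares and triangles are replicates 1, 2 and 3, bars are the mean ± SD of 3 arrays and each vertical axis spans 1 log2 unit. The RUNX2/MYC arrays all lie above the WT arrays for Psmb5 and Psmb6 and below them for Psmb11, in each case by a narrow margin. They overlap for the other 4 genes.

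Each exchangeable subunit was then set against the constitutive subunit it replaces, as the difference of the log2 fold changes, over 4 pairs. Psmb9 moved by -0.29 relative to Psmb6, and the difference of the signals within an array was lower on every RUNX2/MYC array than on any WT array (exact permutation test, two-sided, p = 0.1, 0.2 after adjustment over the 4 pairs). Psmb11 moved by -0.39 relative to Psmb5, again with no overlap (exact permutation test, p = 0.1, 0.2 after adjustment). This difference was -0.27 without WT replicate 3 and -0.26 without both that array and RUNX2/MYC replicate 1, where that of Psmb9 and Psmb6 was -0.33 and -0.37. With 3 arrays against 3 there are 10 splits, and 0.1 is the smallest p this test can give. Psmb8 relative to Psmb5 gave -0.12 (exact permutation test, p = 0.5), which was -0.074 when RUNX2/MYC replicate 1 was left out, -0.23 when the first WT array was and -0.0091 when the third WT array was, and it turned to 0.035 without both RUNX2/MYC replicate 1 and WT replicate 3. Psmb10 relative to Psmb7 gave -0.11 (exact permutation test, p = 0.6), which was -0.018 when RUNX2/MYC replicate 3 was left out, -0.050 when the first WT array was and -0.18 without both intermediate arrays. No pair could therefore reach a p under 0.05 whatever its values, so this test cannot decide whether any of the 4 pairs moved. For the pairs of Psmb9 and Psmb11 the p of 0.1 says only that the groups did not overlap.

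The cells that make PSMB11 were checked by their markers. All 12 measured markers of cortical thymic epithelium had negative log2 fold changes, with a median of -0.29, and 10 of the 12 lay lower on every RUNX2/MYC array. Without Psmb11 itself, 11 of 11 were negative and 9 lay lower on every RUNX2/MYC array. Over all genes 40.2% had positive log2 fold changes and 11.2% lay lower on every RUNX2/MYC array. All 12 stayed negative under each of the 4 other scalings. Psmb11 is 1 of the 12 and had the value closest to 0, beside -0.53 for the keratin gene Krt8, -0.41 for Prss16, a protease of these cells, and -0.24 for the transcription factor gene Foxn1. Summed as linear signals without Psmb11, the markers gave 20442 to 23691 on the RUNX2/MYC arrays, against 27318 to 29834 on the WT arrays, and no defining marker was near the bottom of the signal range. The 7 measured markers of medullary epithelium were all negative (median -0.33), and 5 lay lower on every RUNX2/MYC array. Ccl19 had the lowest value, -1.02 (adjusted p = 0.014 from limma), and was the only 1 of the 7 called lower. Summed as linear signals, these 7 gave 2955 to 3216 on the RUNX2/MYC arrays, against 4103 to 4220 on the WT arrays. Negative values were not particular to epithelium. All 3 fibroblast markers, all 3 of endothelium and all 2 of B cells were negative as well (medians -0.09, -0.05 and -0.26). The 6 adipocyte markers and Alas2 were positive. Whether the shifts of the epithelial markers account for the value of Psmb11 was not tested.

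The immunoproteasome is under interferon control, and the interferon response genes are given beside it. Of 10 measured, 9 had negative log2 fold changes, with a median of -0.28, and 0 passed, and 8 to 10 were negative under the other scalings. Positive values were found for 40.2% of all genes and 75.2% of bright genes. Ifit1 had 8.31, 8.52 and 8.62 on the RUNX2/MYC arrays, against 9.13, 9.03 and 9.49 on the WT arrays, without overlap (log2 fold change -0.73, adjusted p = 0.0623 from limma). It passed after quantile normalisation (adjusted p = 0.0303), cyclic loess (adjusted p = 0.0333) and centring on the 75th percentile (adjusted p = 0.0463), all from limma. Irf1, the interferon-induced factor that acts on immunoproteasome genes, had a log2 fold change of 0.05, which was negative under 3 of the 4 other scalings. The summed linear signals of the 10 genes were 4544 to 5020 on the RUNX2/MYC arrays, against 5434 to 6474 on the WT arrays. The part of interferon in the values of Psmb8, Psmb9 and Psmb10 was not tested.

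The peptide loading genes that neighbour the immunoproteasome genes were measured too. Psmb9, Tap1, Psmb8 and Tap2 follow each other on chromosome 17, and Tap1 and Tap2 encode the transporter that carries peptides to class I molecules. Tap1 had a log2 fold change of -0.10 and Tap2 one of 0.01, with overlapping groups. Of 15 measured genes of class I peptide presentation 10 (66.7%) were positive and 5 negative, and 6 were positive after cyclic loess. Over all genes 40.2% were positive, and over bright genes 75.2%. B2m, the class I light chain, had 12.91, 12.66 and 12.79 on the RUNX2/MYC arrays, against 13.19, 12.94 and 13.13 on the WT arrays, which did not overlap but did not pass (log2 fold change -0.30, adjusted p = 0.197 from limma). Lap3, a leucine aminopeptidase, had 10.20, 10.14 and 10.09 on the RUNX2/MYC arrays, against 9.18, 9.29 and 9.36 on the WT arrays. It rose by 0.87 (adjusted p = 0.0145 from limma, standard error 0.090) and was the only one of 52 related genes to pass, with 0 lower. Over all genes 2.27% were called higher and 0.0953% lower. No related gene passed when RUNX2/MYC replicate 2 or 3 or WT replicate 1 or 2 was left out, where 2 or 3 genes in all were called higher. Thop1, an endopeptidase that cuts proteasome products, was at 0.55 (adjusted p = 0.09 from limma).

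Of 10 other subunits and assembly factors outside the naming pattern 8 (80%) were positive, with a median of 0.14, and 4 (40%) did not overlap, where 75.2% of bright genes were positive and 33.7% did not overlap. Under the other scalings 5 to 9 of the 10 were positive. Uchl5 and Usp14, which encode the deubiquitinases bound to the cap, had log2 fold changes of 0.43 (adjusted p = 0.062 from limma) and 0.41 (adjusted p = 0.115 from limma), and Pomp, which encodes the maturation factor of the core, had one of 0.31. Ublcp1, which encodes a phosphatase that acts on nuclear proteasomes, was at -0.60, with overlapping groups (adjusted p = 0.242 from limma). Of 11 genes of substrate delivery 10 were positive, with the shuttle gene Ubqln4 highest at 0.43 (adjusted p = 0.0553 from limma), and 6 to 10 were positive under the other scalings. The transcription factors known for control of proteasome genes had negative values: Nfe2l1 -0.05, Nfe2l2 -0.04 and Nfe2l3 -0.19, none of which passed, and the first pair turned positive under median centring.

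**Figure D4:**
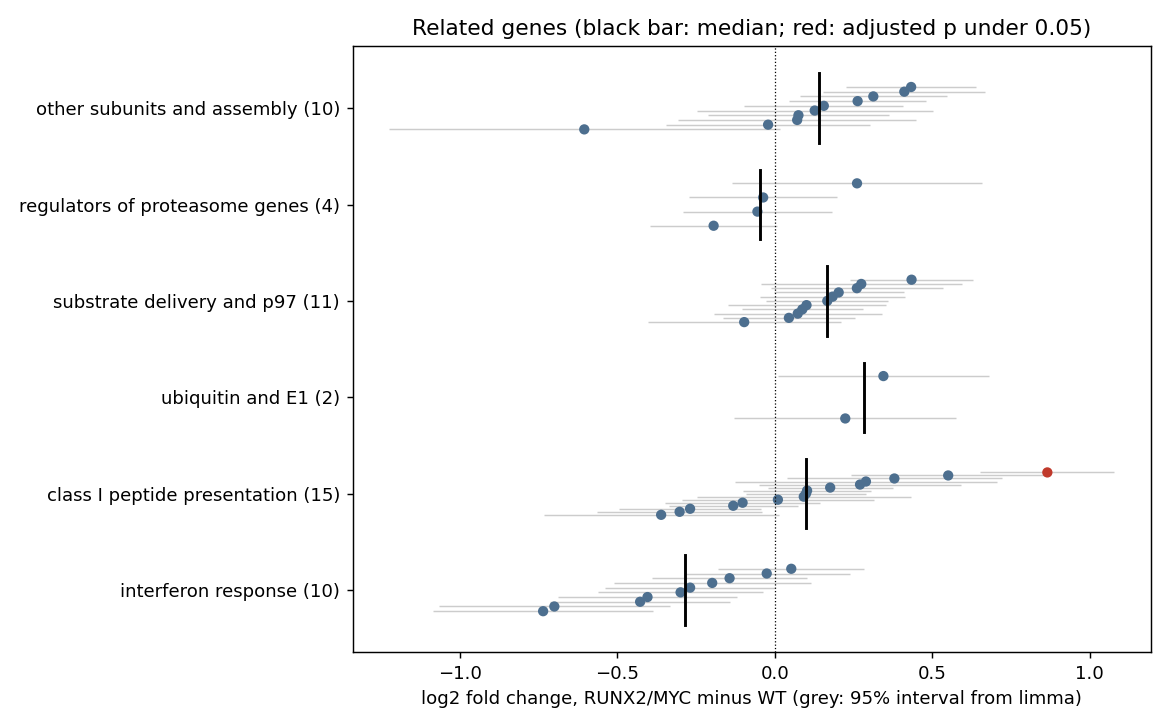
Log2 fold change, RUNX2/MYC minus WT, of 52 related genes in 6 groups, with the number of genes in parentheses. Points are genes, grey lines are 95% confidence intervals from limma, black bars are medians and the red point is Lap3, the only one with an adjusted p under 0.05. The interferon response genes lie furthest left (median -0.28) and the partners and delivery factors of the proteasome mostly right of 0.

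The arrays did not contribute evenly. RUNX2/MYC replicate 2 was the highest array for 37 of the 50 proteasome genes, where 23.7% of all genes and 46.7% of bright genes were highest there. WT replicate 2 was the lowest array for 23 genes and WT replicate 1 for 17. The median deviation of the 50 genes from their own means was 0.03, 0.17 and 0.06 on RUNX2/MYC replicates 1 to 3, against -0.10, -0.13 and -0.03 on WT replicates 1 to 3, so the groups did not overlap in this summary. Bright genes gave -0.04, 0.16 and 0.10 on the RUNX2/MYC arrays, against -0.12, -0.10 and 0.01 on the WT arrays. RUNX2/MYC replicate 2 is also the array with high adipocyte markers, whose summed linear signal was 4434 there, 1318 and 1464 on the other RUNX2/MYC arrays and 1116 to 1363 on the WT arrays. Without that array the median log2 fold change of the 50 genes was 0.14, 43 remained positive and 0 were called, where 2 genes in all were called higher. For the 20S chaperones the median was 0.41 without it, against 0.43 with all arrays, while that of the constitutive catalytic subunits was 0.10 without it, against 0.19.

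**Figure D5:**
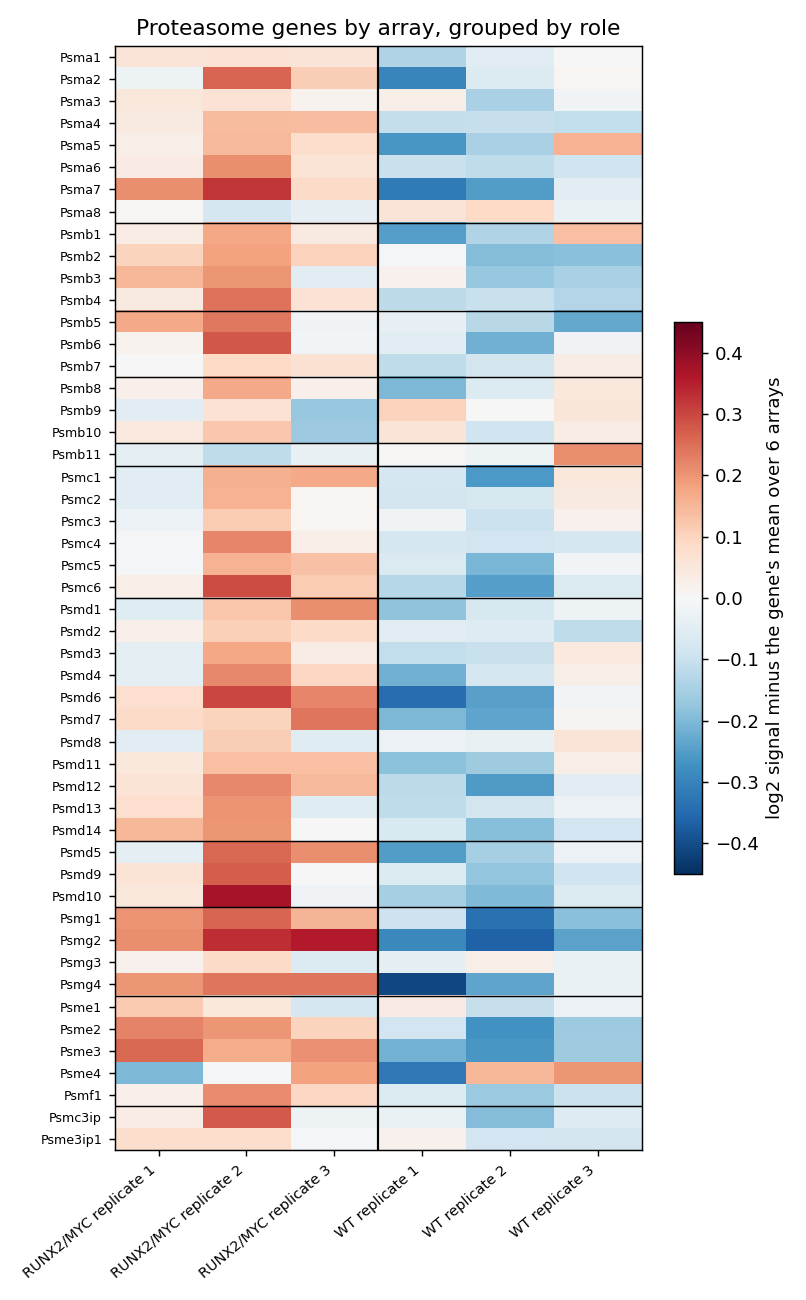
Heat map of 50 genes in rows, grouped by role and divided by horizontal lines, on 6 arrays in columns, RUNX2/MYC left of the vertical line and WT right of it. Colour is the log2 signal minus the mean of that gene over the 6 arrays. RUNX2/MYC replicate 2 is the most red column, the highest array for 37 genes, and the row of Psmb11 is blue on all 3 RUNX2/MYC arrays.

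Sequences before the transcription starts were searched for letters that MYC, RUNX2 and the known regulators of proteasome genes recognise. The RefSeq promoter table (GRCm38.p6) gave windows for 42 of the 50 genes used here, and the 250 bases before each start were read on both strands, beside the same window of 27025 promoters. The E-box CACGTG, bound by MYC, was found in 4 of the 42 windows (9.52%, against 6.05% of all windows), those of Psma4, Psmb10, Psmd9 and Psme3. The RUNX letters TGTGGT, which read ACCACA on the other strand, were found in 8 (19%, against 14.2%), the antioxidant response element TGACNNNGC, bound by NFE2L1 and NFE2L2, in 5 (11.9%, against 10.1%), and the gamma-activated site TTCNNNGAA of interferon signalling in 2 (4.76%, against 7.18%). Among the 8 windows with RUNX letters were those of Psmc3ip and Psme3ip1, which only match the naming pattern. No matches shared bases in the 42 windows. These shares are descriptions, and a match is neither a site nor a cause.

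Of these, 6 windows carry the comparisons above and are printed 5′ to 3′ in the direction of transcription, with matches to these motifs on either strand in capitals. Psme3 and Psmb10 are shown because they alone of the 42 hold both an E-box and RUNX letters, as 0.77% of all windows do, while their log2 fold changes were 0.42 and 0.00. Psmb5 and Psmb11 are neighbours on chromosome 14 with log2 fold changes of opposite sign, and Psmb8 and Psmb9 are the immunoproteasome genes beside the transporter genes.
Psme3, chr11:101315963-101316212, plus strand: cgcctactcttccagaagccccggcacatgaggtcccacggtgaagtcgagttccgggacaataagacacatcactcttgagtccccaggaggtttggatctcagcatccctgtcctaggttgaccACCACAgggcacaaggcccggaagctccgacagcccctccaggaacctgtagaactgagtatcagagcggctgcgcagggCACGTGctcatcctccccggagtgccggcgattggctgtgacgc
Psmb10, chr8:105938393-105938642, minus strand: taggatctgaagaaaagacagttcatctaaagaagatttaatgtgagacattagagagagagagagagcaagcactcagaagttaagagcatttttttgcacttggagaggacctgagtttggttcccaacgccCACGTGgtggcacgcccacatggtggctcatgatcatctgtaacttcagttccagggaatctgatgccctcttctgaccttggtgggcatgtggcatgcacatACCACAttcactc
Psmb5, chr14:54617996-54618245, minus strand: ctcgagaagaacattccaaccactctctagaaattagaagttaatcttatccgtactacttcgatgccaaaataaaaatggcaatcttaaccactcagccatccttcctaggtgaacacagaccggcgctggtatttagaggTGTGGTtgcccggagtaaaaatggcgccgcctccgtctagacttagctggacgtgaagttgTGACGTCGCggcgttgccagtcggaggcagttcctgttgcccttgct
Psmb11, chr14:54625060-54625309, plus strand: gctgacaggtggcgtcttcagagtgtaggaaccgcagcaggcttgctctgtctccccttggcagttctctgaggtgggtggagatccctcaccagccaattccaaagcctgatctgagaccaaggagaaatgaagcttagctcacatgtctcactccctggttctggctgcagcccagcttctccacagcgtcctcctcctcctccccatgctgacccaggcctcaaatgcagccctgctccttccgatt
Psmb8, chr17:34197945-34198194, plus strand: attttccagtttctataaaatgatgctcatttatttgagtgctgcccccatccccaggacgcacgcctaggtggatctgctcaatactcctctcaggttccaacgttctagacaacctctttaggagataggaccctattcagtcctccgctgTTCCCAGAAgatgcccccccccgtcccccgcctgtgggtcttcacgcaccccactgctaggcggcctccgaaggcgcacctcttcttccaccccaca
Psmb9, chr17:34187331-34187580, minus strand: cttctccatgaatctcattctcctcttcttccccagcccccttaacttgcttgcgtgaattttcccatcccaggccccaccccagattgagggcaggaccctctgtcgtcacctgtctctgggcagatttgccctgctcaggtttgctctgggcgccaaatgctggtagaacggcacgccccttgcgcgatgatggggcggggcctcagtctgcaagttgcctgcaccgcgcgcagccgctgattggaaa

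Positions count from -1, the base just before the start. In the window of Psme3 the E-box begins at -44 and the RUNX letters at -124, and in that of Psmb10 the E-box begins at -116 and the RUNX letters at -13. Psmb5 has RUNX letters at -108 and an antioxidant response element at -47. Psmb8 has a gamma-activated site at -97. The windows of Psmb11 and Psmb9 hold none of the 4 motifs, and neither do those of Psmg4 and Psma7, both with log2 fold changes above 0.40.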

How the data were processed

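The authors hybridised RNA of whole thymus to 1 array per sample and deposited log2 signals per probe set. The submitters' processing notes name RMA and Affymetrix Expression Console 1.4, and the methods name Partek Genomics Suite with RMA and a GC content adjustment before background correction. RMA includes a normalisation between arrays. Array medians of the deposited values still ran from 7.31 to 7.44 in RUNX2/MYC and from 7.41 to 7.49 in WT, and the median log2 fold change was -0.07 over all genes and 0.14 over bright genes. The genome build is not given in the sources used here.

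The deposited values were used as they are. The annotation pairs 21789 probe sets with 1 gene. RUNX2/MYC was compared with WT in limma 3.58.1 (R 4.3.3, lmFit and eBayes) over all probe sets with Benjamini-Hochberg adjustment, and a gene was called at an adjusted p under 0.05. The limma script was tested on simulated data. Differences within pairs of subunits were tested by exact permutation over arrays. Per-array values are given for Psmb5 to Psmb11, each gene called and the 5 with the largest positive and negative log2 fold changes (only 4 were negative), and others by class. Values of further single genes were picked for print after they were seen. The gene set and all lists were chosen with earlier results of these data known. The probe set of Runx2 was found by its number in a table of the study. Arrays carry no read depth, and their number (3 per group) limits the precision. Alternatives covered scaling, filters, the features tested, array weights, the test and leaving out arrays. The main test did not pair arrays by replicate number, since the labels do not say what it marks. Promoters on chromosome 18, those of Psmg2 and Psma8, are not shown.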

Additional observations from a re-analysis of the deposited data

How the results depend on the processing

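The count of 1 proteasome gene called higher was 2 under median centring, the filter on dim probe sets (the lowest 25% left out) and the intensity trend, 4 over probe sets of 1 gene, 3 with the methods' analysis of variance and q values, and 0 under it with Benjamini-Hochberg adjustment and under centring on the 75th percentile. It was 30 with array weights, whose estimation stopped before it converged and which called 5005 genes higher and 7329 lower in all. Without RUNX2/MYC replicate 1 and WT replicate 3 it was 12, where 3050 genes in all were called higher and 4130 lower. With 1 array left out it ranged from 0 to 1. The count of 1 related gene higher was 3 under median centring and with q values, 2 with the dim filter and with the trend, 4 over probe sets of 1 gene, 22 with array weights, 13 without both intermediate arrays, and 0 to 1 with 1 array left out. The count of 0 related genes lower was 2 after quantile normalisation, cyclic loess and over probe sets of 1 gene, 1 under centring on the 75th percentile, the dim filter and the trend, 8 with array weights and 4 without both intermediate arrays. The replicate number as a block gave 2 proteasome genes higher (Psme3 and Psmg2), 3 related genes higher and 3 lower, where 958 genes in all were called higher. Deviations from the group mean correlated at 0.50, -0.15 and 0.61 between arrays of the same number, and at -0.63 to 0.37 between arrays of different numbers. The methods describe littermate-matched controls, but the labels do not say what a replicate number marks. Whether the arrays are paired is therefore not known.

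The median log2 fold change of the 50 genes was 0.106 after quantile normalisation, 0.063 after cyclic loess, 0.273 under median centring, 0.092 under centring on the 75th percentile and 0.143 to 0.233 with 1 array left out. The median of bright genes moved with it, at 0.034, -0.0017, 0.222 and 0.041 under these 4 scalings. Psmb8 relative to Psmb5 turned to 0.035 without both intermediate arrays and ranged from -0.23 to -0.0091 with 1 array left out. Psma8 turned positive after quantile normalisation (0.024), cyclic loess (0.068) and median centring (0.0061). Psmb10 turned negative after quantile normalisation (-0.10), cyclic loess (-0.15), centring on the 75th percentile (-0.10), with array weights (-0.028) and without both intermediate arrays (-0.0056), and ranged from -0.060 to 0.082 with 1 array left out. Psmb7 gave -0.00086 after quantile normalisation and -0.032 after cyclic loess, and Psmb8 -0.0047 after cyclic loess. Psme4 turned positive under median centring (0.066), with array weights (0.012) and without both intermediate arrays (0.17), and ranged from -0.18 to 0.077 with 1 array left out. The cause of these changes was not tested.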
